A study of Mus musculus with 2 samples.

Results

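The genes described here are 36 heat shock chaperones and co-chaperones, taken as a fixed list by gene symbol out of 55450 genes in the matrices. All 36 had at least 100 UMIs over both libraries, as did 16345 genes in all. The list was divided by textbook regulation into 20 members that the heat shock factor HSF1 is known to induce, 14 members counted as constitutive, and Hsf1 and Hsf2 themselves. The list is called cytosolic, although Hspd1, Hspe1 and Hspa9 encode mitochondrial proteins and Hspa13 a microsomal protein. It was drawn up with results of these data known, and Hsph1 and Hspa4l among others were also listed by the study from these same nuclei, so their direction is not independent evidence.

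Chaperones of the HSP70 and HSP90 families hold unfolded proteins and refold them with ATP, HSP40 proteins deliver the clients, and co-chaperones time the cycle or pass clients from one machine to the next. When unfolded protein builds up, HSF1 is released from these chaperones, forms trimers and binds heat shock elements, runs of GAA and TTC units near the start of its target genes. In brain, endothelial and glial cells are known to induce the HSP70 genes readily, while neurons rely more on constitutive members.

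Nuclei came from the ventrolateral periaqueductal gray (vlPAG), a midbrain column, of wild-type (WT) C57/BL6J mice. One library was made from 18 pooled mice given a high-fat diet (HFD) for 7 weeks, the diet-induced obese (DIO) mice of the study, and the other from 18 pooled mice given a normal diet (NFD) for 7 weeks, all 8 weeks old at the start. The study asked which genes differ in vlPAG cells, GABAergic cells above all, after the diet. There was 1 library per diet and no replicate, so no test between diets was possible, and diet cannot be told apart from pooling, dissection or capture of each library.

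Unique molecular identifiers (UMIs) tag single RNA molecules, and a level here is the summed UMIs of a gene divided by all UMIs of the library or cell group, scaled to CPM. The filter kept 6322 HFD nuclei with 54587419 UMIs and 7500 NFD nuclei with 41042988 UMIs, at medians of 7347.5 UMIs in HFD nuclei and 4504.5 in NFD nuclei. Malat1 took 3.02% of HFD and 4.43% of NFD UMIs and mitochondrial genes 0.481% of HFD and 0.552% of NFD UMIs. The 4 blood markers summed to 1.76 CPM in the HFD library and 15.3 CPM in the NFD library, and 12 barcodes were shared between the libraries. Of the 14 marker lists checked, 1 granule neuron marker was at 0 in both libraries, and the granule neuron markers summed to 85.3 CPM in HFD and 8.58 CPM in NFD. The part of the blood markers in the ratios below was not tested. Log2 ratios are HFD over NFD CPM, with exact conditional binomial 95% intervals in parentheses, and all intervals cover counting error only.

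Heat shock elements are printed first, since they are the sites through which HSF1 is known to act on these genes. RefSeq windows of 250 bases before to 50 after each gene start (GRCm38.p6) matched 30 of the 36 members, and Hsf1, Hspa8, Hspa9, Hspa13, Hsp90aa1 and Hsp90ab1 were not matched. The short element of 2 units was GAANNTTC or TTCNNGAA, and the strict one of 3 units was GAANNTTC followed by NNGAA, or TTCNNGAA followed by NNTTC. Both were searched on both strands, and every strict match also contains short ones. Capitals mark the bases of any match, 5′ to 3′ on the strand of the gene.
Hspa1a, chr17:34972247-34972266, minus strand, 104 bases upstream of the start: ctgctgGAAGATTCctggcc
Hspa1b, chr17:34959329-34959348, minus strand, 104 bases upstream: ctgctgGAAGATTCctggcc
Hsph1, chr5:149636356-149636375, minus strand, 33 bases upstream: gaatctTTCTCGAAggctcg
Hsph1, chr5:149636287-149636307, minus strand, 36 bases downstream: ctgcagaTTCTGGAAAGTTCt
Hspe1, chr1:55088053-55088082, plus strand, 89 bases upstream: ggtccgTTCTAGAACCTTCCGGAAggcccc
Chordc1, chr9:18292261-18292287, plus strand, from 4 bases upstream: cgGAACGTTCGGGAAAATTCCTGAAgc
Dnajb6, chr5:29735846-29735870, plus strand, 46 bases upstream: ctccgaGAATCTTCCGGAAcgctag

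Hspa1a and Hspa1b carried the same 20 bases, Hspe1 shared its run with the window of Hspd1 on the other strand, and the run of Chordc1 spanned its start. From the start of another Hsph1 window, the same matches lay 54 bases upstream and 15 bases downstream. Both Hsph1 stretches lie inside the gene as GENCODE draws it. From the start of another Dnajb6 window, its match lay 127 bases upstream. Of members with a window, 4 of 17 HSF1-inducible genes (Hsph1, Hspd1, Hspe1 and Chordc1) and 1 of 12 constitutive genes (Dnajb6) held the strict element, against 0.662% of all 27025 genes. The short element was found in 11 of the 17 and in 3 of the 12 (Dnaja4, Dnajb6 and Cdc37), against 17.0% of all genes. Dnajb1 and Stip1 held neither form in their windows and are among the members measured higher in HFD below, while Dnajb6 held the strict element and was nearly equal between libraries. A match describes letters in a window, not a bound site.

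HSF1-inducible members were measured higher in the HFD library as a group, and most constitutive members were not. Here a member counts as higher where its HFD CPM was at least 25% above the NFD CPM, and as lower where it was at least 20% below, the same fold downward. Of the 20 inducible members 16 were higher, as were 2 of the 14 constitutive members and 18 of all 36, while 5.57% of the 16345 genes were higher. Hspa1a, Hspa1b and Bag3, among the 16, reached the minimum of 100 UMIs only through the HFD library, so their calls are not support. No member was lower, against 13.8% of all genes. The median log2 ratio was 0.61 over inducible members, 0.07 over constitutive members and -0.04 over all genes. The inducible median was 0.62 without cluster 5, the granule neuron cluster described below, and 0.59 with Malat1 and mitochondrial genes left out of the total. It was 0.60 at a minimum of 500 UMIs, which Hspa1a, Hspa1b and Bag3 did not reach.

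**Figure D1:**
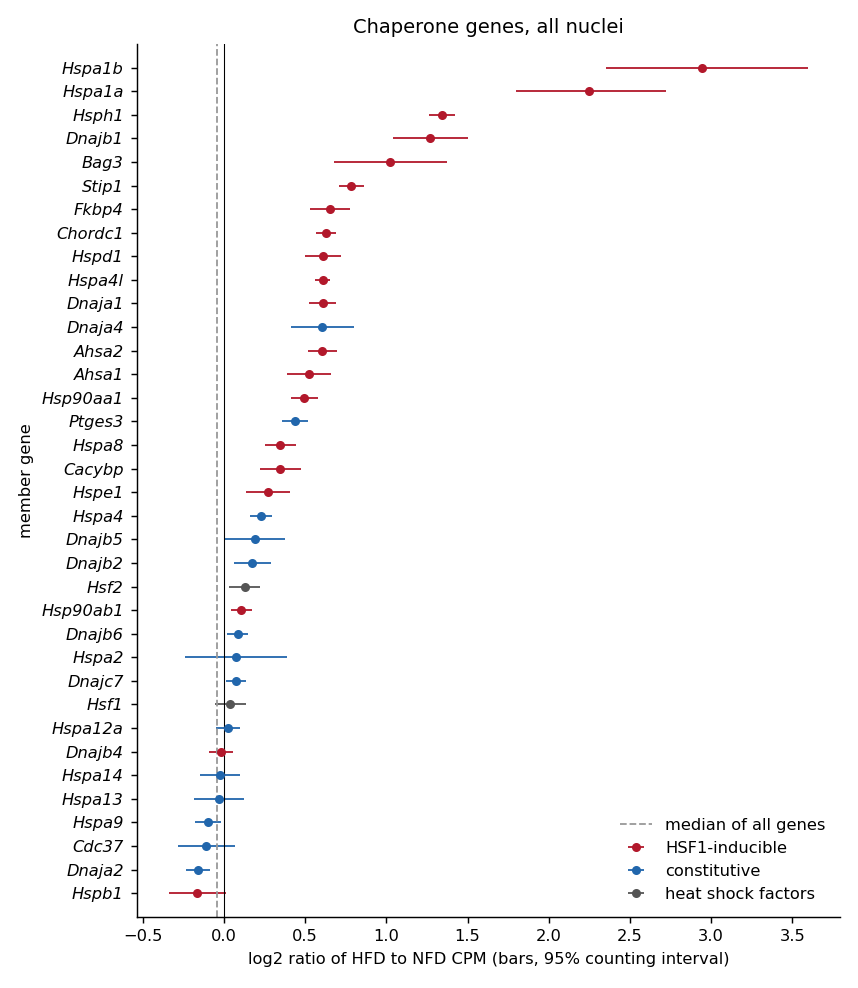
The x axis is the log2 ratio of CPM, HFD over NFD, for each of the 36 members in all nuclei, with 95% counting intervals as bars. Red points are HSF1-inducible members, blue constitutive members, grey the heat shock factors, and the dashed line is the median of all genes at -0.04. Red points fill most of the upper rows, with Hspa1b at the top at 2.94, and Hspb1 is at the bottom at -0.17.

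The HSP70 genes Hspa1a and Hspa1b, which encode the stress-induced form of HSP70, had the largest ratios. Hspa1b had 256 UMIs in HFD and 25 in NFD nuclei, a log2 ratio of 2.94 (2.35 to 3.60), or 3.68 when nuclei were thinned to 2000 UMIs each. Here and below, thinning left out nuclei with under 2000 UMIs, so thinned values also rest on fewer nuclei. Hspa1a had 297 UMIs in HFD and 47 in NFD nuclei, at 2.25 (1.80 to 2.72), or 3.01 after thinning. They are single-exon genes of near-identical sequence at chr17:34969190-34972156 and chr17:34956436-34959238, both on the minus strand, so the split of reads between them is uncertain. Both levels were low, at 4.69 CPM in HFD and 0.609 CPM in NFD nuclei for Hspa1b, and 5.44 CPM in HFD and 1.15 CPM in NFD nuclei for Hspa1a. Endothelial nuclei held 46.1% of Hspa1b UMIs in HFD and 20.0% in NFD, and ependymal nuclei 36.7% in HFD and 44.0% in NFD. For Hspa1a, endothelial nuclei held 53.5% in HFD and 25.5% in NFD, and ependymal nuclei 11.8% in HFD and 12.8% in NFD.

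The HSP110 proteins are nucleotide exchange factors of HSP70 that pull aggregates apart with it. Hsph1, which encodes the inducible HSP110 (chr5:149614287-149636376, minus strand, up to 19 exons), had 5429 UMIs in HFD and 1612 in NFD nuclei, 99.5 CPM in HFD and 39.3 in NFD nuclei, at 1.34 (1.26 to 1.42). Its relative Hspa4l had 11471 UMIs in HFD and 5652 in NFD nuclei, at 0.61 (0.56 to 0.66). The constitutive relative Hspa4 stood at 84.9 CPM in HFD and 72.6 in NFD, at 0.23 (0.16 to 0.29). The intervals of these 3 ratios did not overlap.

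The other HSP70 members were closer between libraries. Hspa8, the abundant constitutive HSC70 that is also raised by heat, had 41.6 CPM in HFD and 32.7 in NFD, at 0.35 (0.25 to 0.45). Hspa2, a form known from testis, had 3.77 CPM in HFD and 3.58 in NFD, at 0.08 (-0.24 to 0.39), which became -0.32 with the same shares of clusters in both libraries and 0.77 after thinning, and 69.9% of its HFD UMIs and 56.5% of its NFD UMIs were in ependymal nuclei. Hspa12a, an atypical member, stood at 0.03, Hspa14, which works at the ribosome, at -0.02, and Hspa13 at -0.03. Hspa9, the mitochondrial HSP70, had 50.4 CPM in HFD and 54.0 in NFD, at -0.10 (-0.18 to -0.02).

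The HSP90 genes code for an inducible form, Hsp90aa1, and a more constant one, Hsp90ab1, which the list also counts as HSF1-inducible. Hsp90aa1 had 58.6 CPM in HFD and 41.6 in NFD, at 0.50 (0.41 to 0.58), and Hsp90ab1 had 93.6 CPM in HFD and 86.8 in NFD, at 0.11 (0.05 to 0.17). With the same shares of clusters in both libraries Hsp90aa1 was at 0.28 and Hsp90ab1 at 0.20, and Hsp90aa1 no longer counted as higher. Stip1, also called HOP, bridges HSP70 and HSP90, and had 80.4 CPM in HFD and 46.6 in NFD, at 0.79 (0.71 to 0.86). Fkbp4, an immunophilin of steroid receptor complexes, stood at 0.65 (0.53 to 0.78), Chordc1, an HSP90 binding protein, at 0.63 (0.57 to 0.69), Ahsa2 at 0.60 and Ahsa1, an activator of the HSP90 ATPase, at 0.52 (0.39 to 0.66). With the same shares of clusters in both libraries Ahsa1 was at 0.15 and no longer counted as higher, and Fkbp4 was at 0.36. Cacybp, a binding partner of ubiquitin ligases, was at 0.35 (0.22 to 0.47). Of the constitutive co-chaperones, Ptges3, the p23 protein that closes the HSP90 clamp, was at 0.44 (0.36 to 0.52), and Cdc37, which loads kinases on HSP90, at -0.11 (-0.28 to 0.07). Without cluster 5, Stip1 was above 0 in 19 of 19 clusters where measured, Chordc1 in 21 of 21 and Ahsa2 in 18 of 18. Other inducible members were mixed, with Hsph1 above 0 in 19 of 20 and Hspa8 in 13 of 18. Hsp90ab1 was above 0 in 13 of 20 and Dnajb4 in 7 of 19. The share of all genes above 0 in every cluster is not given. The median log2 ratio of all genes ran from -0.07 to 0.08 over the clusters compared.

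The mitochondrial chaperonin has a barrel and a lid. Hspd1 (HSP60) had 35.7 CPM in HFD and 23.4 in NFD, at 0.61 (0.50 to 0.72), and Hspe1 (HSP10), its lid, 21.8 CPM in HFD and 18.1 in NFD, at 0.27 (0.14 to 0.41). When both libraries were given the same shares of clusters, Hspd1 was at 0.36 and Hspe1 at -0.13. The genes overlap on opposite strands and have 5 (Hspd1) and 6 (Hspe1) pseudogenes by name, so their counts are uncertain.

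The HSP40 members ran from -0.16 to 1.27. Dnajb1, the classic inducible HSP40, had 667 UMIs in HFD and 208 in NFD nuclei, 12.2 CPM in HFD and 5.07 in NFD nuclei, at 1.27 (1.04 to 1.5). Dnaja1 was at 0.61 (0.52 to 0.69) and Dnaja4 at 0.61 (0.42 to 0.80), although Dnaja4 was counted as constitutive. The remaining constitutive members lay near 0, with Dnajb5 at 0.19 (-0.09 after thinning), Dnajb2 at 0.17 (0.45 after thinning), Dnajb6, a suppressor of aggregation, at 0.08 and Dnajc7, which binds HSP70 and HSP90, at 0.07. Dnajb4, an inducible member by the list, had 63.9 CPM in HFD and 64.8 in NFD, at -0.02 (-0.09 to 0.05). Dnaja2, a relative of Dnaja1, was the lowest of the HSP40 members at -0.16 (-0.23 to -0.09), with 62.0 CPM in HFD and 69.3 in NFD.

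Bag3, which couples HSP70 to autophagy, had 262 UMIs in HFD and 97 in NFD nuclei, 4.80 CPM in HFD and 2.36 in NFD nuclei, at 1.02 (0.68 to 1.37), or 1.93 after thinning. Hspb1 (HSP27), a small heat shock protein that binds unfolding clients without ATP, had 10.6 CPM in HFD and 11.9 in NFD, at -0.17 (-0.34 to 0.01). Endothelial nuclei held 81.2% of the Hspb1 UMIs of the HFD library and 91.2% of those of the NFD library, and they were 1.52% of HFD and 3.44% of NFD nuclei. With the same shares of clusters in both libraries, the Hspb1 ratio was 0.76, and after thinning it was 0.57. Hsf1, the master regulator of this response, had 39.1 CPM in HFD and 38.1 in NFD, at 0.04 (-0.06 to 0.13), and Hsf2 41.2 CPM in HFD and 37.7 in NFD, at 0.13 (0.03 to 0.22), or -0.02 after thinning. The activity of HSF1 is set at the protein, which RNA counts do not measure.

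Other lists of protein homeostasis genes had medians between -0.17 and 0.19, except the small heat shock proteins at 0.66, beside the 5.57% of all genes that were higher and the 13.8% that were lower. Of 38 further cytosolic co-chaperones 1 was higher and 2 were lower, at a median of 0.04. All 8 subunits of the chaperonin TRiC, which folds actin and tubulin, were above 0, at a median of 0.19, with 1 (Cct7, 0.48) counted as higher. Of all 16345 genes 6784 were above 0. Prefoldin had a median of -0.17 over 6 genes, the proteasome -0.07 over 34 and endoplasmic reticulum chaperones 0.14 over 12, among which Hspa5 (BiP) was at -0.30. Of 6 small heat shock proteins 2 were measured, of which Hspb8, a partner of Bag3, had 105 UMIs in HFD and 35 in NFD, at 1.17, and Cryab 214 UMIs in HFD and 145 in NFD, at 0.15 (-0.16 to 0.46). The immediate early genes, which neurons and other cells switch on within minutes of a stimulus, also stood above all genes, with 7 of 14 measured higher, against 5.57% of all genes, at a median of 0.33, led by Nr4a3 at 1.64.

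Cell groups were made by clustering with the members left out, and named from markers. Endothelial nuclei held Flt1 at 4278 CPM in HFD and 2945 in NFD, against at most 2.48 CPM in other nuclei, and ependymal nuclei held Foxj1 at 418 CPM in HFD and 259 in NFD. Unnamed clusters are called by their leading genes, and clusters in which neither the GABAergic nor the glutamatergic markers were 2-fold above the other are called mixed. Cluster 5, led by the granule neuron gene Gabra6 with 769 HFD and 10 NFD nuclei, was not compared. Ratios are given where a member had at least 30 UMIs in the group over both libraries. A member high in a single library could pass through that library alone, so its call is then not independent of the minimum.

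Inducible members stood above constitutive ones in each neuronal group. In 1729 HFD and 2449 NFD GABAergic nuclei, 14 of 18 inducible and 2 of 13 constitutive members were higher, against 7.14% of all genes of that group (its background), at medians of 0.58 and 0.07. Glutamatergic nuclei had 10 of 16 and 2 of 13 (background 7.46%), at 0.42 and 0.02. Mixed nuclei had 13 of 17 and 3 of 13 (7.96%), at 0.60 and 0.06, and serotonergic nuclei 12 of 16 and 4 of 13 (14.2%), at 0.59 and 0.18. Hsph1 was close in both main classes, with 84.8 CPM in HFD and 33.5 in NFD GABAergic nuclei, at 1.34 (1.20 to 1.49), and 82.8 CPM in HFD and 32.6 in NFD glutamatergic nuclei, at 1.34 (1.17 to 1.52). Stip1 was at 0.81 in GABAergic and 0.63 in glutamatergic nuclei and Dnajb1 at 1.12 in GABAergic and 1.01 in glutamatergic nuclei, with overlapping intervals.

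The glial groups and the unnamed clusters each had fewer UMIs in all than the neuronal groups above. Of 7 inducible members measured in astrocytes 5 were higher (background 21.8%), at a median of 0.48, or 0.15 after thinning, with Hsph1 at 49.2 CPM in HFD and 26.4 in NFD, at 0.90 (0.02 to 1.82), and Dnajb4 was lower, at -0.39 (background 21.1%). Oligodendrocytes had 7 of 10 (25.2%), Hsph1 at 1.40 (0.68 to 2.17), and oligodendrocyte precursors only Chordc1 measured, at 0.72. In the cluster led by Inpp5d and Fyb 6 of 8 were higher (27.1%), in the one led by Chst9, Gldc and Kit 6 of 10 (25.1%), and in the one led by Slc4a4 and Aldh1a1 6 of 12 (27.8%). In the cluster led by Vip, Lmx1a and Th, a dopamine synthesis gene, with medians of 10347.5 UMIs in HFD and 5236.5 in NFD, 8 of 15 were higher (16.3%) and 2 lower (17.4%). The nuclei led by S100b, Aldoc and Pcp2, with medians of 999 UMIs in HFD and 801.5 in NFD, ran the other way, with 7 of 11 inducible members lower (background 31.9%) and 2 higher (32.7%), and Hsph1 at 130 CPM in HFD and 210 in NFD, at -0.69.

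**Figure D2:**
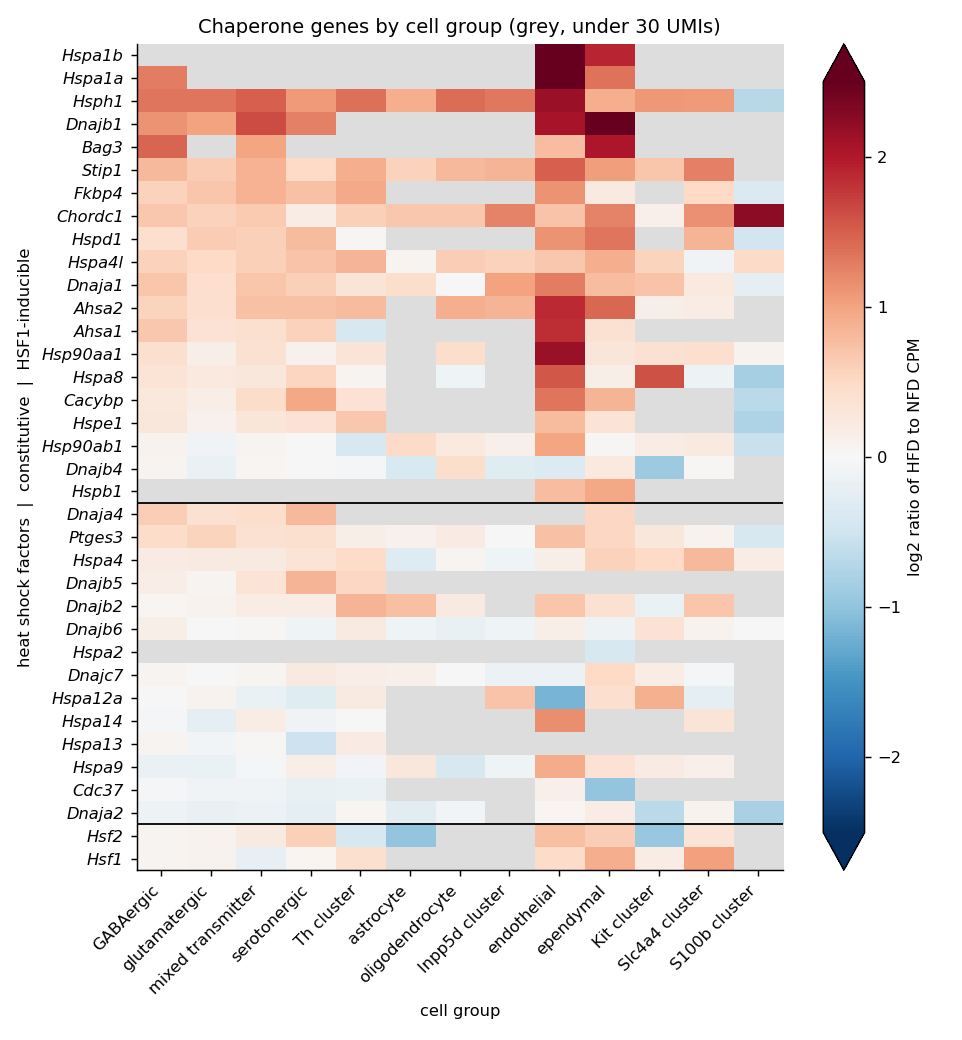
Log2 ratio of HFD to NFD CPM (colour) for members (rows, inducible above, constitutive in the middle, heat shock factors below) in 13 cell groups (columns). Grey cells have under 30 UMIs over both libraries, and the Hsph1 row is red in 12 of the 13 groups and blue in the S100b cluster, at -0.69.

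Endothelium had the highest inducible median of the groups compared, at 1.30, although the members measured differed between groups. In endothelium 19 of 20 inducible members were higher (background 32.1%) and Dnajb4 was lower (25.1%), in 96 HFD and 258 NFD nuclei. Hspa1a and Hspa1b were among those that passed the UMI minimum only through the HFD library, so their calls are not support. The 6 endothelial markers summed to 104 CPM in the whole HFD library and 168 CPM in the NFD library, while each of the 6 had a higher CPM in HFD than in NFD endothelial nuclei. Of all genes measured in these nuclei, 3896 of 6986 were above 0. Other lists stood high in the same nuclei, with immediate early genes above 0 in 6 of 6 at a median of 1.17, TRiC in 8 of 8 at 0.76, and 7 of 8 endoplasmic reticulum chaperones higher at 0.54. The part of these in the ratios was not tested. Hspa1a had 159 UMIs in HFD and 12 in NFD nuclei, at 4.42 (3.58 to 5.40), and was seen in 39 of 96 HFD nuclei (40.6%, 30.7 to 51.1) and 5 of 258 NFD nuclei (1.94%, 0.632 to 4.46, Clopper-Pearson 95%). No single nucleus carried it, since the fullest HFD nucleus held 17 UMIs. Hspa1b was at 5.25 (3.99 to 6.90), with 118 UMIs in HFD and 5 in NFD nuclei. Both genes encode the same stress-induced chaperone. Hsph1 was at 2.17, Hsp90aa1 at 2.15, Dnajb1 at 2.06, Hspa8 at 1.56, Hsp90ab1 at 0.99 and Hspb1 at 0.77, with 1044 CPM in HFD and 611 in NFD. Of 10 constitutive members measured 4 were higher and 1, Hspa12a at -1.15, lower.

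Ependymal nuclei, from the ciliated lining of the aqueduct, followed. Of 20 inducible members 15 were higher (background 28.7%), at a median of 0.91, in 173 HFD and 106 NFD nuclei. Of 11 constitutive members 7 were higher and 2 lower (21.4%). The 6 ependymal markers summed to 176 CPM in the HFD and 117 CPM in the NFD library. Dnajb1 had 79 UMIs in HFD and 1 in NFD nuclei, at 5.12 (2.60 to 10.44), in 44 of 173 HFD nuclei (25.4%) and 1 of 106 NFD nuclei (0.943%), against 3 of 219 HFD (1.37%) and 1 of 344 NFD (0.291%) astrocytes. Bag3 had 74 UMIs in HFD and 8 in NFD nuclei, at 2.02 (0.97 to 3.29), and Hspa1b 94 in HFD and 11 in NFD nuclei, at 1.91 (1.0 to 2.96). Counts in NFD ependymal nuclei were small for these genes, which passed the UMI minimum only through the HFD library. Hsph1, at 789 CPM in HFD and 423 in NFD, had its highest level of any named group here, and its ratio, 0.90 (0.65 to 1.16), was below that in GABAergic nuclei with no overlap of intervals. Hspa1a, Hspa1b, Dnajb1 and Bag3 were low in neurons, where Hspa1a had 51 UMIs in HFD and 17 in NFD GABAergic nuclei, at 1.27. Astrocytes had no UMI of Hspa1a or Hspa1b in 219 HFD nuclei, which allows UMIs in up to 1.37% of such nuclei, or in 344 NFD nuclei, up to 0.872%, and leaves the share of expressing nuclei unknown at medians of 2708 UMIs in HFD and 1769.5 in NFD astrocytes. Endothelial nuclei had medians of 2596.5 UMIs in HFD and 1558.5 in NFD, and ependymal nuclei of 3267 in HFD and 1816 in NFD.

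**Figure D3:**
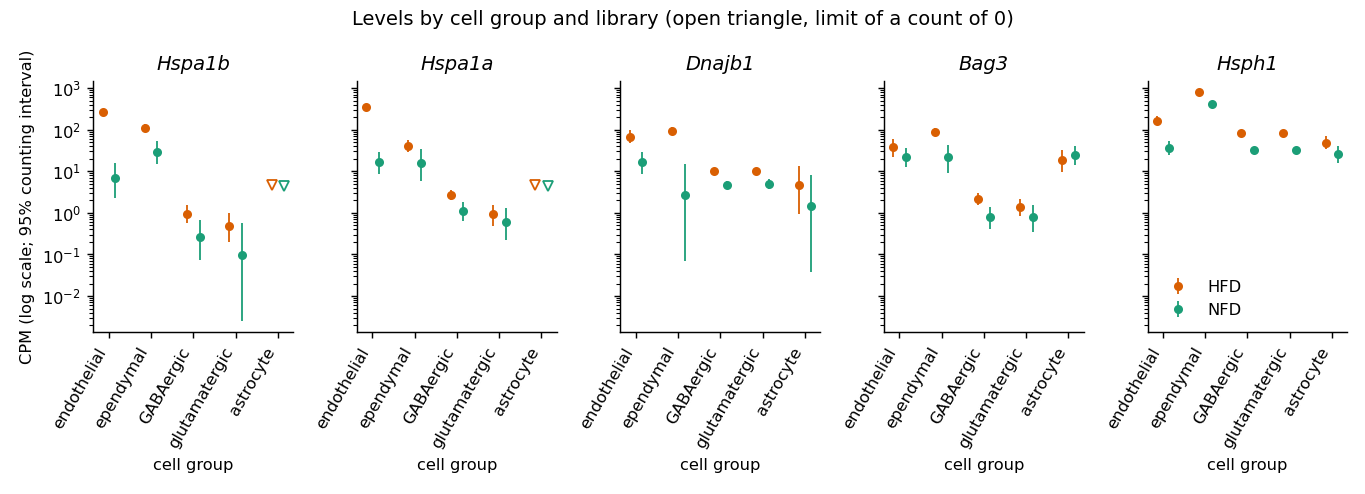
CPM (log scale, 95% counting interval) of the 5 members with the largest ratios in 5 cell groups, HFD in orange at the left of each pair and NFD in green at the right. Open triangles mark the limit of a count of 0, and endothelial Hspa1a stands at 352 CPM in HFD and 16.5 in NFD.

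**Figure D4:**
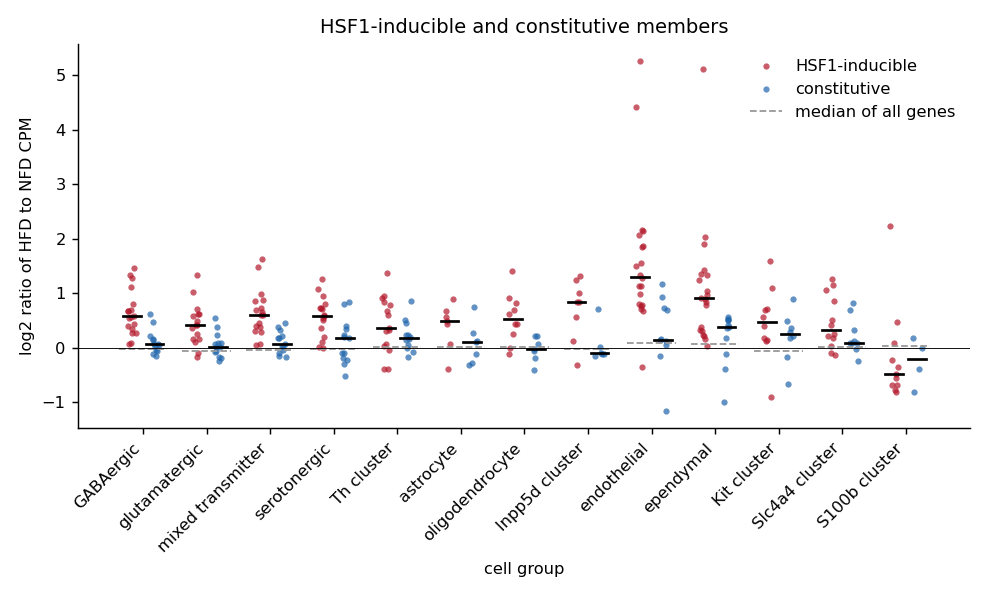
Log2 ratio of HFD to NFD CPM of each measured member in 13 cell groups, inducible in red and constitutive in blue. Black bars are class medians and dashed lines the median of all genes in the group, and the inducible median is 1.30 in endothelial and -0.48 in S100b cluster nuclei.

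Levels of single members also differed between cell groups within a library. Hsph1 in HFD nuclei was at 789 CPM in ependymal, 166 in endothelial, 134 in oligodendrocyte, 114 in serotonergic, 103 in mixed, 84.8 in GABAergic, 82.8 in glutamatergic and 49.2 in astrocyte nuclei, and the GABAergic and glutamatergic intervals overlapped. In NFD nuclei the same groups had 423, 37.0, 50.8, 54.4, 36.8, 33.5, 32.6 and 26.4 CPM, so that endothelial nuclei stood among the neuronal groups. Hsp90ab1 was far higher in endothelial nuclei, at 1239 CPM in HFD and 625 in NFD, than in GABAergic nuclei, at 70.0 CPM in HFD and 66.1 in NFD. In ependymal nuclei Hsp90ab1 was also high and nearly the same in both libraries, with 1077 CPM in HFD and 1059 in NFD, at 0.02 (-0.15 to 0.20).

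HFD nuclei were deeper, so ratios were also taken among nuclei of like depth. In GABAergic nuclei of 2000 to 5000 UMIs Hsph1 had 121 CPM in HFD and 34.6 in NFD, at 1.81 (1.40 to 2.21). It was at 1.40 in nuclei of 5000 to 10000 UMIs, 1.43 in those of 10000 to 20000 and 0.99 (0.40 to 1.63) above 20000, in 121 HFD and 29 NFD nuclei. Dnaja2 in the same classes was at 0.11, -0.02, -0.15 and 0.12. The inducible median was 0.91, 0.73, 0.57 and 0.36 from the shallowest to the deepest class, with 15 of 16, 14 of 16, 13 of 16 and 8 of 15 members higher (backgrounds 28.8%, 12.2%, 13.2% and 23.3%). The constitutive median was 0.48 in the shallowest class, where 9 of 13 were higher, then 0.12, 0.00 and 0.15. In all nuclei of 500 to 2000 UMIs, 7 of 17 inducible members were higher (background 18.6%) and 1 lower (42.3%), at a median of 0.26. Cluster 5, with 769 HFD nuclei at a median of 1712 UMIs and 10 NFD nuclei, was not left out here. The libraries therefore also differed in cell types within this class. In all nuclei above 20000 UMIs, 357 of HFD and 71 of NFD, 11 of 20 were higher (15.1%) and 5 lower (22.6%), at a median of 0.40. In nuclei thinned to 2000 UMIs, Hsph1 was seen in 16.8% of HFD nuclei and 7.45% of NFD nuclei. Among all nuclei before thinning it was seen in 43.0% of HFD nuclei and 16.6% of NFD nuclei. Thinning left out nuclei with under 2000 UMIs, so these shares cover different nuclei. In NFD nuclei the endothelial (1558.5), astrocyte (1769.5) and ependymal (1816) medians were below that limit.

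**Figure D5:**
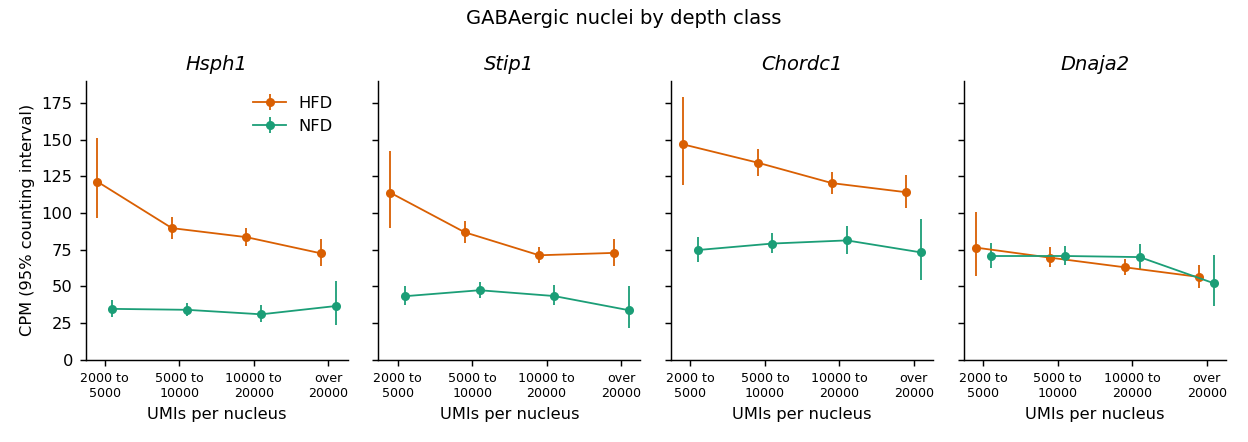
CPM with 95% counting intervals in GABAergic nuclei by UMIs per nucleus, for Hsph1, Stip1, Chordc1 and Dnaja2, HFD in orange and NFD in green. HFD points of Hsph1 lie between 72.5 and 121 CPM, NFD points lie between 30.9 and 36.5 CPM, and the Dnaja2 intervals of both libraries overlap in every class.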

How the data were processed

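Values are whole UMI counts for each gene in each nucleus, as deposited. The authors demultiplexed with bcl2fastq 5.01 and counted with Cell Ranger (4.0.0 in the header) on GRCm38, and analysed in Seurat 3.1.1. The treatment of intronic reads is not given in the sources used. Nuclei with over 500 UMIs and under 20% mitochondrial counts were kept, then normalized to 10000 and clustered in Seurat 5.3.0 (R 4.3.3; 2000 variable genes, 1908 used, 20 principal components, resolution 0.5). Members, other stress lists, mitochondrial genes and genes the study lists as changed were left out of the variable genes. Scrublet (scanpy 1.11.5) marked 0 HFD and 1 NFD nuclei, so doublets were kept. The rules that leave shallow clusters unnamed, and glial-like clusters with a neuronal score above -0.5, were set after clusters were seen. Members and lists were chosen with earlier results of these data known. Every member is accounted for, full values go to the 10 largest ratios and the relatives beside them, and other lists name at most their 2 highest and 2 lowest. CPM, Poisson, binomial and Clopper-Pearson intervals used Python 3.11.15, scipy 1.17.1 and pandas 2.3.3, and cover counting error only. The ratio step was tested on simulated data. Positions are from GENCODE on GRCm38 and promoters from RefSeq.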

Additional observations from a re-analysis of the deposited data

Results flagged for a closer look

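For 4 members the counting intervals lay on opposite sides of 0 in different cell groups. Hsf2 was at 0.60 (0.20 to 1.01) in serotonergic nuclei and -0.98 (-2.02 to -0.01) in astrocytes, on 14 HFD and 29 NFD UMIs. Hsp90ab1 was at 0.99 (0.81 to 1.17) in endothelial nuclei and -0.56 (-0.95 to -0.16) in cluster 18, the S100b cluster. Hspa12a was at 0.89 (0.01 to 1.77) in cluster 11, led by Chst9, Gldc and Kit, on 25 HFD and 23 NFD UMIs. In endothelial nuclei Hspa12a was at -1.15 (-2.33 to -0.11), on 10 HFD and 36 NFD UMIs. Hspa8 was at 1.59 (0.55 to 2.70) in cluster 11 and -0.82 (-1.40 to -0.24) in cluster 18. The share of all genes with such opposite intervals is not given, so the count of 4 has no background and is not a trait of the members. With 1 library per diet, these differences between groups were not tested.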

How the results depend on the processing

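No paired analysis was possible because each diet had 1 library, and for the same reason no replicate could be left out. The inducible median was 0.61 in all nuclei and ran from 0.56 with the same cluster shares to 0.68 with nuclei thinned to 2000 UMIs. Of the inducible members 12 to 18 counted as higher, 12 at 1.5-fold and 18 after thinning. The constitutive count of 2 became 4 with each nucleus weighted equally, 4 after thinning and 1 at 1.5-fold. It became 5 with Hspa8, Hsp90ab1, Hspa4l and Ahsa2 counted as constitutive. At 1.5-fold, 269 of all 16345 genes were higher. The share of all genes after thinning or with equal weighting is not given, so those counts have no background. The ependymal inducible median of 0.91 became 1.20 with each nucleus weighted equally. The cause was not tested. Of the summary values over lists, 78 did not move and 6 did, among them the inducible median after thinning. Values of single members left their counting interval in 49 cases and stayed within it in 239. Some members changed sign under some settings. With the same cluster shares Hspe1 went from 0.27 to -0.13, although its counting interval in all nuclei lay above 0, and Hspb1 from -0.17 to 0.76. The other alternatives were the scaling total, the centring, the mitochondrial limit, Scrublet scores, the UMI minimum and the clustering. A minimum of 100 UMIs left too few members in astrocytes and oligodendrocytes. Of the groups compared, Hspa2 had at least 30 UMIs in 1, Hspa1b and Hspb1 in 2, Hspa1a in 3 and Bag3 in 4.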
